A study of Mus musculus with 5 samples.

Results

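MHC class II antigen presentation was examined through 10 genes in the livers of Mdr2+/- and Mdr2+/+ mice. They were taken by symbol from the deposited count tables. The 10 symbols matched 11 of 36401 rows, because Ciita is listed under a pair of Ensembl identifiers. Of these genes, 8 belong to the class II machinery (H2-Aa, H2-Ab1, H2-Eb1, H2-DMa, H2-DMb1, Cd74, Ciita and Ctss), and Itgax and Flt3 mark dendritic cells. After the filter on low counts, 10 of the 11 rows were tested. The row that did not pass is the second Ciita identifier, with 2 counts in all Mdr2+/+ and 0 in all Mdr2+/- libraries.

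The libraries came from lobe 1 of the liver of BALB/C pups killed on day 10 of life, 2 of genotype Mdr2+/+ and 3 of genotype Mdr2+/-. Mdr2 is the older name of Abcb4, the hepatocyte transporter that delivers phosphatidylcholine to bile. The mutant allele had been bred onto a BALB/c background, and pups of the different genotypes were littermates. By its title the series concerns reduced ABCB4 and inflammation in biliary atresia, a neonatal bile duct disease, and the comparison asks which liver transcripts differ with a single working allele. Totals ran from 11944157 to 17312851 estimated counts per library. Abcb4 fell from 162 ± 0.0278 to 97.0 ± 4.07 CPM (read counts scaled to library size, mean ± SD, n = 2 and n = 3). The summed level of 5 hepatocyte markers, Alb among them, ran from 154624 to 180295 CPM over all libraries. The deposited files carry 5 different numbers beside the genotype, as separate pups would, but the labels do not say what these number. If the replicates were not separate pups, p-values measure only the spread between these samples, which may be technical.

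Class II molecules are surface dimers of an alpha and a beta chain that show peptides from endosomes to CD4+ T cells. The chains are made in the endoplasmic reticulum with the invariant chain Cd74 in their groove. Endosomal proteases, with cathepsin S (Ctss) acting late, trim Cd74 down to a short peptide, which the H2-DM dimer then exchanges for an antigen peptide. Transcription of the chains, of Cd74 and of H2-DM depends on the co-activator Ciita, which is recruited by factors bound to the X and Y boxes of their promoters and is itself induced by interferon-gamma. In liver the proteins are carried by dendritic cells, B cells and a share of the macrophages, and more weakly by sinusoidal endothelium.

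The promoter stretches shown here are where those boxes lie, for H2-Aa and H2-Eb1, whose RNA fell, and for H2-Ob, whose RNA did not pass the test. They come from RefSeq on GRCm38.p6 (the build mm10) and run 5′ to 3′ on the gene's strand. Capitals mark a core of the X box (GNAAC) and the core of the Y box (ATTGG).
H2-Aa, chr17:34287842-34287954, minus strand: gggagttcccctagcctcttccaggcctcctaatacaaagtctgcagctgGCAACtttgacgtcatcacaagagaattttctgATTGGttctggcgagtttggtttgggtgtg
H2-Eb1, chr17:34305726-34305837, plus strand: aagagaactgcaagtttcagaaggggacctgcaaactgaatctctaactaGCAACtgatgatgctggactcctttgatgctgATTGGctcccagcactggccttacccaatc
H2-Ob, chr17:34238768-34238877, plus strand: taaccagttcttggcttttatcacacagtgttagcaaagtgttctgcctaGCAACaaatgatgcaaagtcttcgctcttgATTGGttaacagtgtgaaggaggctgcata

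The GNAAC core began 81 bases before the annotated start in H2-Aa, 91 in H2-Eb1 and 87 in H2-Ob, and ATTGG began 48, 59 and 57 bases before it. A module of GNAAC followed by 25 to 28 bases and ATTGG was searched on both strands of the 250 bases before each start, with letters and spacing chosen after these sequences were read. On the gene's strand it was found in 104 of 32851 promoters (0.317%), and on either strand in 0.588%. Of the 7 class II and marker genes with an entry in the promoter table, 3 held it: H2-Aa, H2-Eb1 and H2-DMb1. Because the module was chosen from the sequences shown, H2-Aa, H2-Eb1 and H2-Ob had to match it. Ctss, Itgax and Flt3 did not hold the module in this window. Neither did the 2 windows of H2-DMa, but the RefSeq starts of H2-DMa lie 3291 and 5977 bases from its GENCODE start. H2-Ab1, Cd74 and Ciita have no entry. In H2-DMb1 the GENCODE start lies 119 bases before the RefSeq start, so the module is inside the first exon of that annotation. Among 4 other class II genes with an entry, H2-Eb2, H2-Oa and H2-Ob held the module and H2-DMb2 did not, its RefSeq start lying 1942 bases from its GENCODE start. A match describes letters only: ATTGG or its complement CCAAT alone occurred in 33.8% of all promoters.

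**Figure D1:**
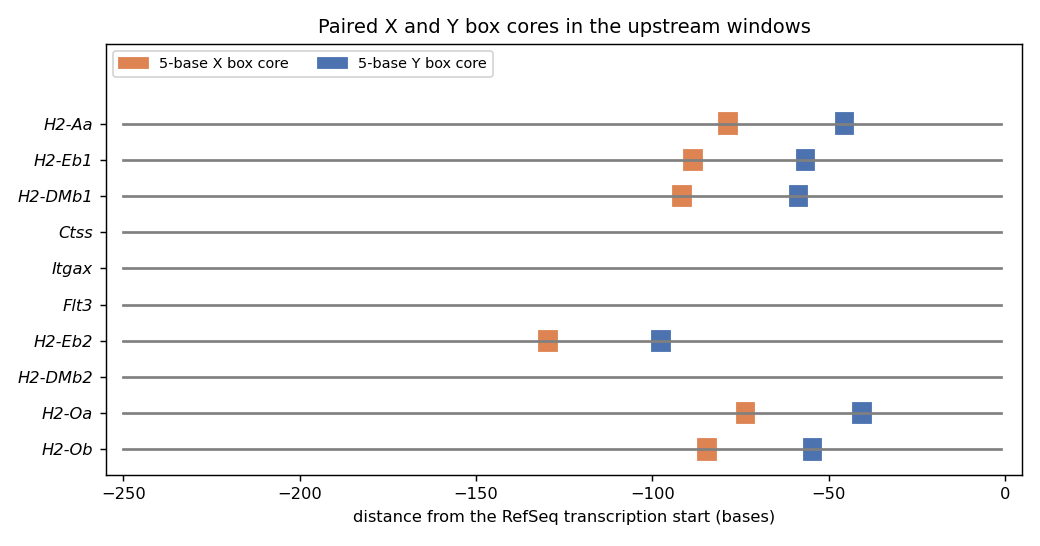
Position of the paired X and Y box cores in the 250 bases before the RefSeq start of each gene (x axis, bases from the start). Each grey line is a gene's window, orange and blue blocks are the paired cores, and lines without blocks (Ctss, Itgax, Flt3 and H2-DMb2) held no pair. H2-DMa, whose 2 windows held no pair, and genes without an entry are not drawn.

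Most of the class II machinery was lower in heterozygous livers, while the dendritic cell markers did not pass the test. Of the 8 machinery genes, 6 fell and 0 rose, where 5.41% of all 13959 tested genes were called lower, 6.63% higher and 12% in either direction (edgeR quasi-likelihood test, adjusted p under 0.05 over all tested genes). The median log2 fold change (log2FC, heterozygous minus wild-type) of the 8 was -0.93, against 0.00 for all tested genes. Heterozygous and wild-type libraries did not overlap for 7 of the 8, with the heterozygous ones lower, as was so for 22.7% of all tested genes. In a whole-liver sample, fewer class II bearing cells and less class II RNA per cell cannot be told apart.

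**Figure D2:**
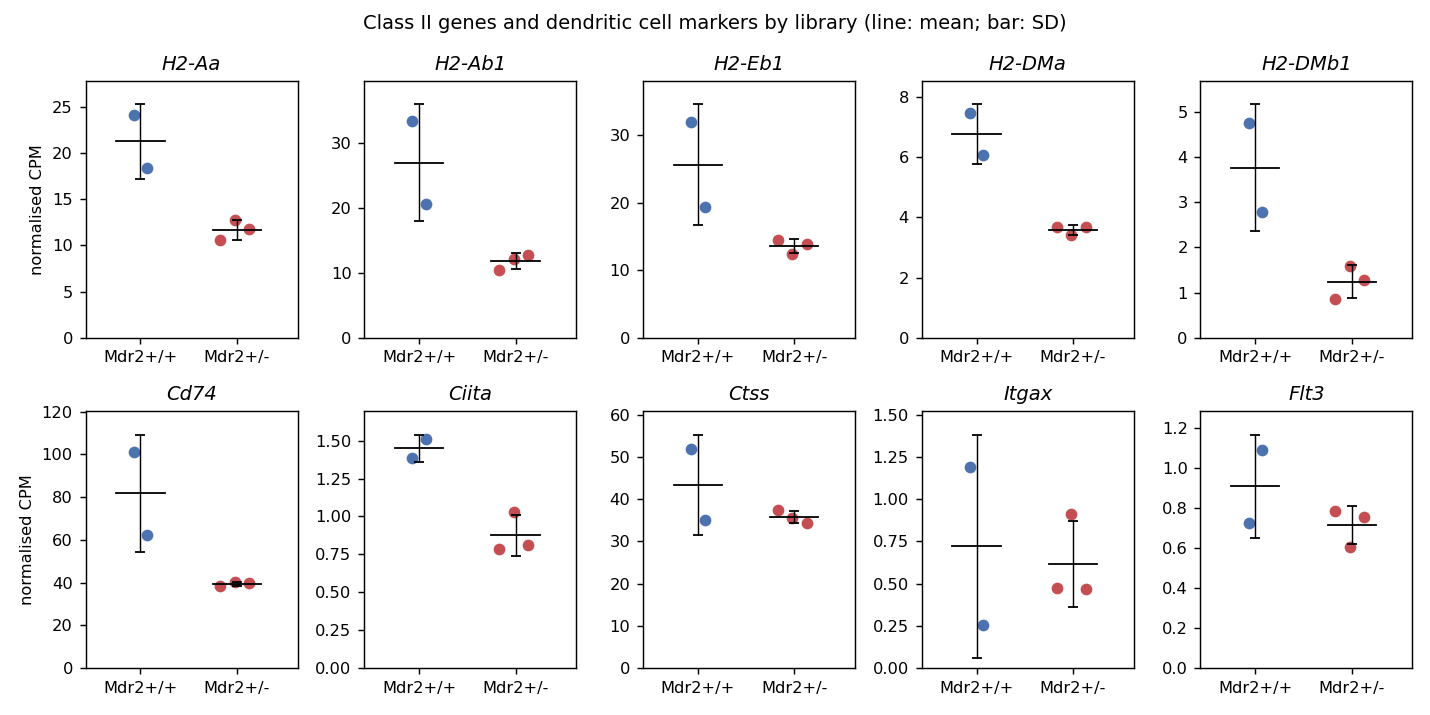
Normalised CPM (y axis, from 0 in each panel) of the 10 tested genes in the 2 Mdr2+/+ (blue) and 3 Mdr2+/- (red) libraries; lines are means and bars SD. The red points lie below both blue points in 7 of 8 class II machinery panels, Ctss being the exception, and overlap them for Itgax and Flt3.

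The alpha and beta chains of the A and E dimers all fell. H2-Aa, the A alpha chain (ENSMUSG00000036594, chromosome 17, 34282744 to 34287823), stood at 24.1 and 18.4 CPM in wild-type and at 10.6, 12.7 and 11.7 CPM in heterozygous libraries. Every heterozygous library lay below both wild-type libraries, and the log2FC was -0.86 (SE 0.13, adjusted p = 0.00406). H2-Ab1, the A beta chain (ENSMUSG00000073421, chromosome 17, 34257689 to 34269419), stood at 33.4 and 20.6 CPM against 10.4, 12.2 and 12.7 CPM. This was a fall by 1.20 on the log2 scale (SE 0.18, adjusted p = 0.00393), to 0.435 of the wild-type level. H2-Eb1, the E beta chain (ENSMUSG00000060586, chromosome 17, 34305867 to 34316674), stood at 32.0 and 19.3 CPM against 14.4, 12.4 and 14.0 CPM, with a log2FC of -0.93 (SE 0.18, adjusted p = 0.0117). Its partner, the E alpha chain, is annotated as the pseudogene H2-Ea-ps because the reference strain C57BL/6 carries an inactive copy, whereas BALB/c mice make the chain. H2-Ea-ps stood at 20.3 and 15.6 CPM against 8.24, 10.3 and 10.4 CPM and also fell (log2FC -0.90, adjusted p = 0.00459). BALB/c carry other alleles of these polymorphic chains than the reference, and how that affects alignment was not tested. Whether the genotypes carry the same class II alleles after the backcross is not stated. If they do not, a difference in alignment and a difference in RNA of these chains cannot be told apart. The same limit holds for H2-DMa, H2-DMb1 and H2-DMb2, which lie near these chains on chromosome 17.

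Cd74, the invariant chain (ENSMUSG00000024610, chromosome 18), was the member with the most reads among those that fell. It stood at 101 and 62.4 CPM in wild-type and at 38.3, 40.2 and 39.8 CPM in heterozygous libraries. The wild-type libraries were far apart and the heterozygous ones close together, all of them below both wild types. The log2FC was -1.06 (SE 0.16, adjusted p = 0.00389), a level 0.480 of the wild-type one. Robust limma gave nearly the same size but an adjusted p of 0.0528. With wild-type replicate 1 left out, the higher of the 2, Cd74 had a log2FC of -0.67 and remained called.

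The peptide editor H2-DM fell in both of its chains. H2-DMa, its alpha chain (ENSMUSG00000037649), stood at 7.46 and 6.06 CPM against 3.69, 3.40 and 3.66 CPM (log2FC -0.92, SE 0.17, adjusted p = 0.00864). H2-DMb1, a beta chain (ENSMUSG00000079547), stood at 4.76 and 2.78 CPM against 0.863, 1.58 and 1.28 CPM. Its log2FC of -1.59 (SE 0.30, adjusted p = 0.0111) was the lowest among the members, with an approximate 95% interval of -2.27 to -0.91 that overlaps those of the other genes that fell. The near-identical beta chain gene H2-DMb2, with which H2-DMb1 can exchange reads, fell too, from 2.91 and 2.78 to 0.863, 1.09 and 0.872 CPM (log2FC -1.58, adjusted p = 0.00382). The span of H2-DMa overlaps Brd2 on the opposite strand, and part of its reads is uncertain for that reason; Brd2 did not pass (log2FC 0.07, adjusted p = 0.523).

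A single wild-type library carried part of these calls. Without wild-type replicate 1, 3 of the 8 machinery genes were called lower instead of 6: H2-Aa (log2FC -0.65), H2-Ab1 (-0.80) and Cd74 kept the call, and H2-Eb1 (-0.52, adjusted p = 0.0570), H2-DMa (-0.76, adjusted p = 0.0756) and H2-DMb1 (-1.13, adjusted p = 0.109) lost it. Without wild-type replicate 2, 7 were called, Ctss being the added gene. All 6 fold changes stayed below 0 in each of 13 alternative fits.

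**Figure D3:**
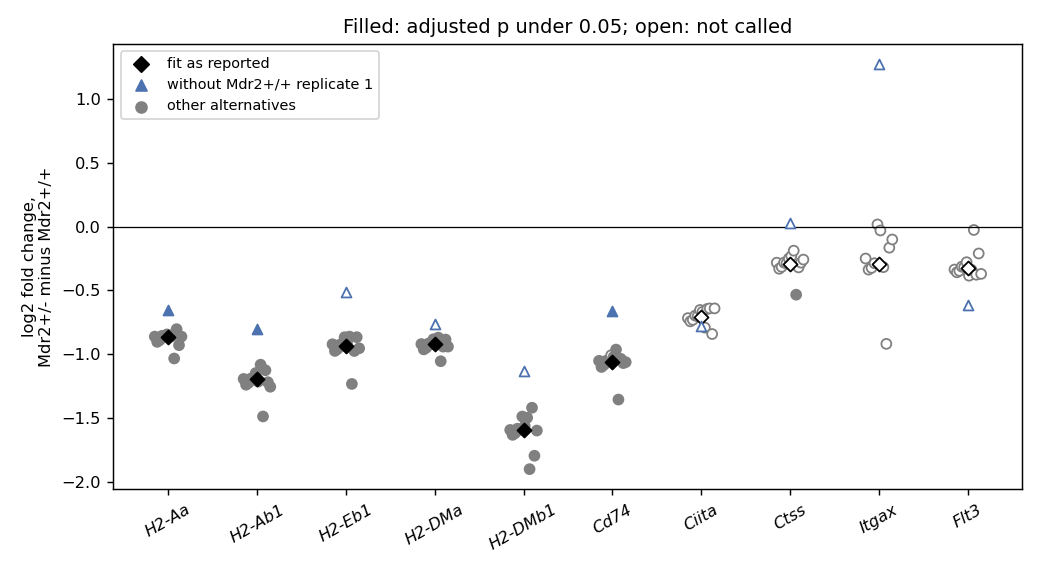
Log2 fold change (y axis) of each of the 10 genes in the fit as reported (black diamonds), without Mdr2+/+ replicate 1 (blue triangles) and in the other alternatives (grey circles); filled symbols passed an adjusted p of 0.05. The triangles lie closer to 0 than the diamonds for the 6 genes that fell, and cross it for Ctss and Itgax.

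The co-activator and the protease of the pathway did not pass. Ciita (ENSMUSG00000022504, chromosome 16, 10480059 to 10528418), which switches on the class II genes, stood at 1.39 and 1.51 CPM in wild-type and at 0.785, 1.03 and 0.814 CPM in heterozygous libraries. The groups did not overlap, but with 39 wild-type and 41 heterozygous counts in all the log2FC of -0.71 had an approximate 95% interval of -1.33 to -0.08 (adjusted p = 0.131). That interval includes the fold changes of H2-Aa, H2-Ab1, H2-Eb1, H2-DMa and Cd74. Ciita overlaps Dexi on the opposite strand, which did not pass either (log2FC 0.11, adjusted p = 0.663). Ctss stood at 51.8 and 35.0 CPM against 37.4, 35.5 and 34.4 CPM, so that wild-type replicate 1 was high and replicate 2 lay among the heterozygous libraries. Its log2FC was -0.29 (interval -0.59 to 0.01, adjusted p = 0.198), and this interval does not reach the fold change of any of the 6 genes that fell. It does overlap the intervals of H2-Aa, H2-Eb1 and H2-DMa (upper ends -0.57, -0.53 and -0.55), though not those of H2-Ab1, Cd74 and H2-DMb1. Ctss had a log2FC of 0.03 when wild-type replicate 1 was left out and of -0.53, which passed, when wild-type replicate 2 was (adjusted p = 0.0105).

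Itgax, the integrin CD11c found on dendritic cells and some macrophages, was near the limit of what these libraries can measure. It stood at 1.19 and 0.252 CPM in wild-type (18 and 3 counts) and at 0.471, 0.910 and 0.465 CPM in heterozygous libraries. The highest and the lowest value were both wild-type. The log2FC of -0.30 had an interval of -1.55 to 0.96 (adjusted p = 0.775) and was 1.27 without wild-type replicate 1. Flt3, the receptor for the cytokine that drives dendritic cell formation, which early blood progenitors also carry, stood at 0.726 and 1.09 CPM against 0.785, 0.607 and 0.756 CPM. The groups overlapped, with a log2FC of -0.32 (interval -1.08 to 0.44, adjusted p = 0.624). Both intervals include 0 and also the fold changes of Cd74, H2-Aa, H2-Eb1 and H2-DMa, so at this depth no difference and a fall of the class II size cannot be told apart for these markers.

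**Figure D4:**
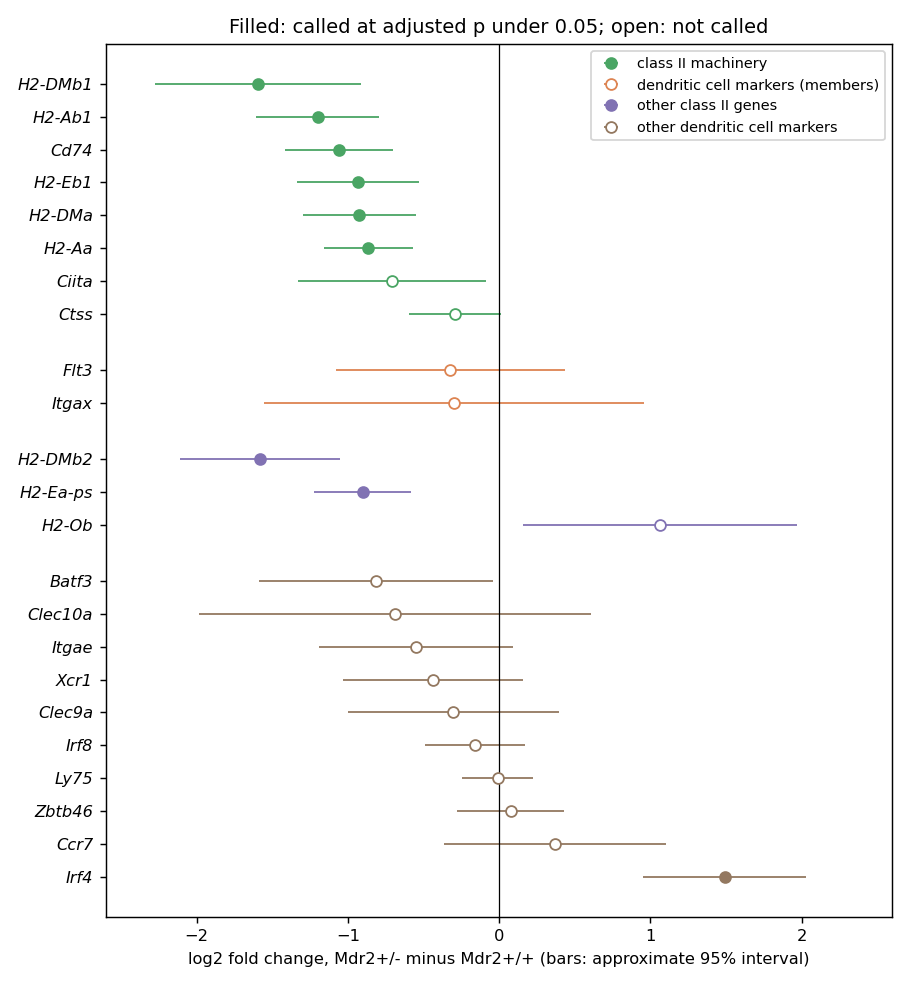
Log2 fold change (x axis, heterozygous minus wild-type) with its approximate 95% interval for the class II machinery, Itgax and Flt3, other class II genes and other dendritic cell markers; filled points passed an adjusted p of 0.05. The filled class II points lie between -1.59 and -0.86, and the intervals of Itgax and Flt3 span 0.

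The direct comparison of class II with the markers used the ratio of Cd74 counts to marker counts within each library, which does not depend on scaling. The ratio to Itgax was 82.9 and 212 in wild-type libraries against 75.2, 42.7 and 80.6 in heterozygous ones, a difference of -1.06 on the log2 scale. The ratio to Flt3 was 133 and 55.0 against 46.5, 63.1 and 50.8, with a log2 difference of -0.69 and overlapping groups. Against Ptprc, the common leukocyte antigen CD45, the ratio was 5.78 and 5.07 in wild-type libraries against 2.26, 2.21 and 2.32 in heterozygous ones (log2 difference -1.26). Against Adgre1, the macrophage antigen F4/80, it was 6.68 and 5.40 against 1.81, 1.92 and 2.54 (log2 difference -1.54). The ratios to CD45 and F4/80 were tight within each genotype and far apart between genotypes, while those to Itgax and Flt3 varied more than 2-fold between the wild-type libraries. In the exact two-sided permutation test over 10 groupings, p was 0.2 for Itgax, Ptprc and Adgre1, the smallest this design allows, and 0.4 for Flt3 (0.267 and 0.4 adjusted over the 4 ratios), so no ratio could pass. Without wild-type replicate 2 the difference against Itgax was -0.38, and without wild-type replicate 1 that against Flt3 was -0.05. Ptprc (log2FC 0.21, adjusted p = 0.348) and Adgre1 (0.51, adjusted p = 0.0683) did not pass in themselves. Adgre1 stood at 15.1 and 11.5 CPM in wild-type and at 21.1, 20.9 and 15.6 CPM in heterozygous libraries, which widens its ratio difference. The 13 Kupffer cell and macrophage markers had a median log2FC of -0.32, so Adgre1 does not stand for that list. Ratios to other macrophage markers were not computed.

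**Figure D5:**
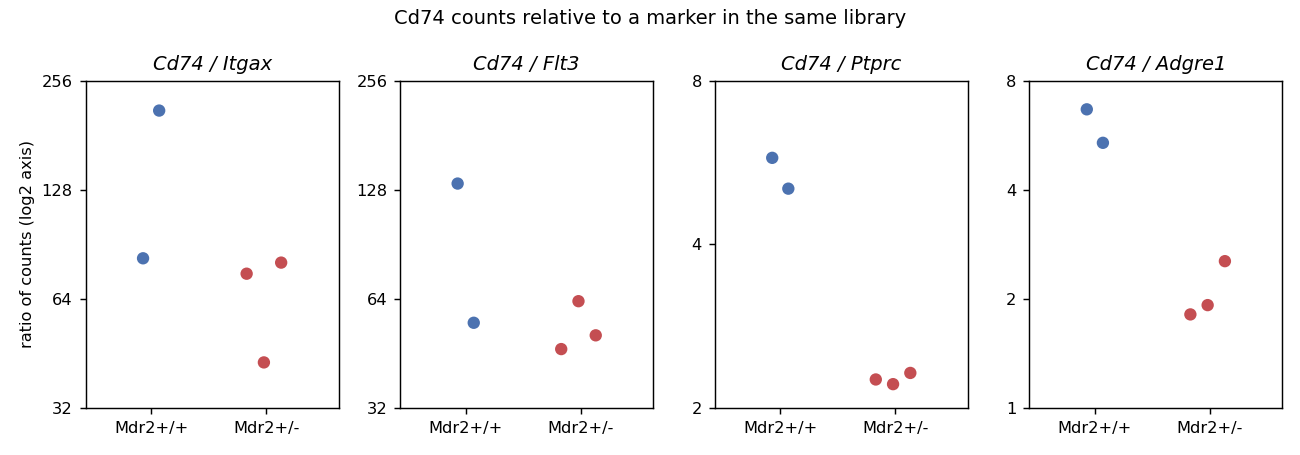
Ratio of Cd74 counts to Itgax, Flt3, Ptprc and Adgre1 counts in the same library (y axis, log2 scale with a range of its own in each panel), in Mdr2+/+ (blue) and Mdr2+/- (red) livers. The genotypes separate widely for Ptprc (5.07 and above against 2.32 and below) and Adgre1, narrowly for Itgax, and overlap for Flt3.

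Levels between genes were compared as CPM per kilobase of annotated exon. The length is the union of all exons annotated for a gene: 1679 bases for Cd74, 3798 for H2-Aa and 9535 for Ciita. The order therefore depends on the annotation, and other lengths were not tested. In wild-type livers the order was Cd74 (48.7 ± 16.4), Ctss (32.0 ± 8.77), H2-Eb1 (13.2 ± 4.59), H2-Ab1 (10.5 ± 3.51), H2-Aa (5.60 ± 1.06), H2-DMb1 (2.24 ± 0.833) and H2-DMa (1.96 ± 0.288), with Ciita, Itgax and Flt3 last at 0.152 ± 0.00943, 0.150 ± 0.138 and 0.147 ± 0.0420 CPM per kilobase (SD, n = 2). The wild-type ranges of Cd74 and Ctss overlapped, as did those of H2-Eb1 and H2-Ab1, of H2-DMb1 and H2-DMa, and of the last 3 genes. In heterozygous livers Ctss (26.4 ± 1.12, n = 3) stood above Cd74 (23.5 ± 0.596), and the ranges did not overlap. Cd74 per kilobase was thus above Ctss in both wild-type libraries and below it in all 3 heterozygous ones.

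Other genes of the class II pathway were mostly uncalled, as were most of all tested genes (12% called in either direction). Among other class II chains and editors 2 of 3 tested genes fell, H2-Ea-ps and H2-DMb2. H2-Ob, a chain of the H2-DM inhibitor H2-O that is found mainly in B cells, stood at 0.594 and 0.336 CPM in wild-type and at 0.942, 0.789 and 1.28 CPM in heterozygous libraries. All its heterozygous libraries were above both wild types, as was so for 22.9% of all tested genes. H2-Ob did not pass (log2FC 1.06, adjusted p = 0.120). H2-Eb2 and H2-Oa had 0 to 5 counts per library and were not tested. Of 9 genes for endosomal processing and class II turnover, 0 passed, and the median log2FC was 0.10. By the smallest p these were the ubiquitin ligase gene March8 (log2FC 0.23, adjusted p = 0.0675), the protease Lgmn (-0.15, adjusted p = 0.265) and the cathepsin Ctsh (0.15, adjusted p = 0.267). At an unadjusted p under 0.05, March8 alone would count, and with no filter on low counts it passed (adjusted p = 0.0460).

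Genes that form the promoter complex or carry the interferon-gamma signal to Ciita were read next. Irf1, an interferon-induced factor that acts on Ciita, stood at 50.4 and 28.3 CPM against 30.1, 21.2 and 22.9 CPM and did not pass (log2FC -0.69, adjusted p = 0.0660). Leaving out wild-type replicate 1 gave a log2FC of -0.21 (adjusted p = 0.540) for Irf1. It passed without wild-type replicate 2 (-1.03, adjusted p = 0.00932), without heterozygous replicate 1 (-0.85, adjusted p = 0.0469) and with no filter on low counts (-0.69, adjusted p = 6.11e-04). The promoter-binding subunits of RFX and NF-Y did not pass, with Nfyc lowest in p (log2FC -0.21, adjusted p = 0.140).

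Of 5 co-stimulatory genes tested, 1 was called higher and 1 lower, where 6.63% and 5.41% of all tested genes were. Cd83, which stabilises class II at the surface, stood at 2.31 and 2.02 CPM against 4.47, 3.58 and 3.43 CPM and rose (log2FC 0.80, adjusted p = 0.0414). Icosl, a ligand for the T cell receptor ICOS, stood at 4.16 and 3.20 CPM against 2.12, 2.31 and 1.74 CPM and fell (log2FC -0.85, adjusted p = 0.0344). Each of these calls was lost with any single library left out, at adjusted p = 0.0611 to 0.155 for Cd83 and 0.0542 to 0.229 for Icosl. Cd274, the checkpoint ligand PD-L1, did not pass (log2FC -0.54, adjusted p = 0.245). Leaving out wild-type replicate 1 gave 0.13 for Cd274, and leaving out wild-type replicate 2 gave -0.95, which passed.

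Markers of the cells that can carry class II were read beside these values, and their part in the class II difference was not tested. Among all tested genes, 5.41% were called lower and 6.63% higher. Of 10 tested among 13 other dendritic cell markers, 1 rose and 0 fell, with a median log2FC of -0.23. The summed level of the 13 was 41.1 and 46.0 CPM in wild-type and 42.0 to 43.7 CPM in heterozygous libraries. Its largest parts were Ly75 and Irf8 (mean 14.0 and 13.5 CPM in wild-type), so the sum says little of the other markers. None of the 13 was at 0 in any library. The gene that rose was Irf4, a factor of dendritic and B cells (1.39 and 1.01 against 3.61, 3.64 and 3.08 CPM, log2FC 1.49, adjusted p = 0.00525). Xcr1 and Clec9a, which define cross-presenting dendritic cells, had log2FC of -0.44 and -0.30 and did not pass (adjusted p = 0.321 and 0.574). Batf3 (log2FC -0.81, adjusted p = 0.158) and Itgae (-0.55, adjusted p = 0.244) did not pass either.

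Of 9 B cell markers tested, 3 rose, 0 fell and 6 did not pass, where 6.63% of all tested genes were called higher. Those that rose included the receptor components Cd79a (log2FC 1.22, adjusted p = 0.0126) and Cd79b (1.19, adjusted p = 0.00168). The summed level of the 9 was 15.6 and 21.0 CPM in wild-type and 34.1 to 38.7 CPM in heterozygous libraries. The count of 3 was 2 when any of wild-type replicate 2, heterozygous replicate 2 and heterozygous replicate 3 was left out. Ms4a1 (CD20), a marker of mature B cells, stood at 3.30 and 2.69 CPM against 2.98, 2.79 and 3.08 CPM and did not pass (log2FC -0.03, adjusted p = 0.936). Of the precursor B cell and progenitor markers, 6 of 9 tested rose, among them Vpreb3 (log2FC 1.93), Il7r (1.88) and Rag1 (2.15, and 3.33 without wild-type replicate 1). Il7r did not pass once wild-type replicate 1 was left out (adjusted p = 0.0573). The count of 6 was 2 in that fit and 3 without wild-type replicate 2 or heterozygous replicate 1. It was 3 of 9 with DESeq2, and 1 of 4 (median log2FC 0.04) where 10 counts were required in every library. Neutrophil and granulocyte progenitor markers, from cells with little class II, rose in 10 of 10 cases, with a summed level of 111 and 162 CPM in wild-type and 358 to 457 CPM in heterozygous libraries.

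Kupffer cell and macrophage markers had 4 of 13 lower and 0 higher, where 5.41% of all tested genes were called lower and 6.63% higher. Their median log2FC was -0.32. Their summed level was 517 and 739 CPM in wild-type and 522 to 604 CPM in heterozygous libraries. Those that fell included the scavenger receptors Msr1 (log2FC -0.56, adjusted p = 0.00431), Cd163 (-0.58, adjusted p = 0.0232) and Marco (-1.03, adjusted p = 0.0241). The Kupffer cell lectin Clec4f did not pass (149 and 107 against 125, 134 and 111 CPM, log2FC -0.05). The count of 4 was 1 without wild-type replicate 1, heterozygous replicate 2 or heterozygous replicate 3, and 6 without wild-type replicate 2; 1 marker was called higher with wild-type replicate 1 or heterozygous replicate 3 left out. With wild-type replicate 1 left out, Marco and Cd163 had a log2FC of -0.37 each and did not pass. Both also lost the call without heterozygous replicate 2 or 3, and Marco without heterozygous replicate 1. With all libraries kept, Marco was not called by DESeq2 (adjusted p = 0.107) or robust limma (adjusted p = 0.232). Of 6 sinusoidal endothelial markers 1 fell and 0 rose, and the median log2FC of the 6 was 0.14. The lectin Clec4g fell (log2FC -0.40, adjusted p = 0.00921) but did not pass without wild-type replicate 2. Lyve1 went the other way and did not pass (log2FC 0.49, adjusted p = 0.0954). Of 7 tested T and natural killer cell markers 1 fell, Cd3e (log2FC -1.25, adjusted p = 0.0415), which lost its call with any library left out. Cd3d was higher in every heterozygous library than in both wild types, as were 22.9% of all tested genes, and did not pass (log2FC 1.11, adjusted p = 0.135). The median log2FC of the 7 was -0.39.

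The genes whose pattern over the 5 libraries was nearest to that of Cd74 were found by Euclidean distance between centred log2 CPM values among all tested genes. In order these were Gbp7, a guanylate-binding GTPase (distance 0.140, 77.9 and 54.8 CPM in wild-type), Psmb8, an immunoproteasome subunit (0.163), Tap1, a peptide transporter subunit (0.175), Fcgr4, an Fc receptor (0.206), and H2-Ab1 (0.224). Gbp7, Psmb8, Tap1 and Fcgr4 fell, with log2FC of -1.04, -1.12, -1.02 and -1.14, and Fcgr4 did not pass once wild-type replicate 1 was left out (adjusted p = 0.0586). Of the other members, H2-Eb1 ranked 7, H2-Aa 14 and H2-DMa 20 by nearness to Cd74. Ciita ranked 367 and H2-DMb1 373, both at low counts, and Ctss 821. Flt3 (6013) and Itgax (11436) lay far down the order of 13959 genes. The distance follows the size of the genotype difference and the gap between the wild-type libraries together, and counting error adds to it at low levels.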

How the data were processed

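Per the labels' protocols, TruSeq libraries of liver RNA were sequenced on a HiSeq. Alignment used TopHat and the build mm10, per the submitters' processing notes, with versions, counting tool, annotation and strand setting not given in the sources used here. Values were deposited as estimated counts for each Ensembl gene identifier, scaled to neither depth nor length. A floor of 3 counts is 0.173 to 0.251 CPM per library (counting error only).

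Estimated counts were rounded. Genes were kept by filterByExpr (minimum count 10; 13959 of 36401, 99.9% of counts), scaled by TMM and tested with edgeR 4.0.16 (quasi-likelihood, two-sided, genotype only, Benjamini-Hochberg over all tested genes) in R 4.3.3. The SE is the log2 fold change over the square root of F, and approximate 95% intervals use the fit's t distribution. Chi-square per degree of freedom between libraries was 5.30 to 8.86 within and 18.3 to 25.8 between genotypes, so none was a duplicate. Ratios used a pseudocount of 0.5 counts. Positions and exon lengths came from GENCODE M21 (87.3% of identifiers matched), and symbols missing from the files, such as Adgre1, were matched through its identifiers. Named genes were the members, Abcb4, in each other list at most the 3 tested genes of smallest p, and the 5 genes nearest to Cd74. Others (Ms4a1, Clec4f, Xcr1, Clec9a, Irf8, Ly75, Brd2, Dexi, Adgre1) were named after their values were seen. Some genes of the lists are not reported here. Members and lists were chosen with earlier results of these data known. Alternatives used limma 3.58.1 and DESeq2 1.42.0. The procedure was tested on simulated data.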

Additional observations from a re-analysis of the deposited data

How the results depend on the processing

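The number of class II machinery genes called lower was 6, or 5 with robust limma, under other scalings, filters and tests and with the transcript length offset. It ran from 3 to 7 with each library left out, and the number of all called genes from 697 to 1174 against 1680. Without wild-type replicate 1 the class II count was 3 and the number of all called genes 697; the latter was 907 with wild-type replicate 2 left out, and 838 and 1068 with heterozygous replicates 2 and 3. The log2FC of Itgax was 0.016 with robust limma. With each library left out it ran from -0.92 to 1.27 for Itgax (not tested without heterozygous replicate 2), -0.53 to 0.026 for Ctss, -0.95 to 0.13 for Cd274 and -0.0036 to 0.50 for Ptprc; the reversed values, without wild-type replicate 1 (Ptprc: 2), were not called, and the cause was not tested. Scaling by library size alone turned the split of all called genes from 925 higher and 755 lower to 704 and 936. Replicate numbers are shared by the genotypes without a stated link; deviations of same-numbered libraries correlated at 0.03 for both pairs, and with the replicate number as a block 6 class II genes and 1277 genes in all were called, and 2 B cell markers instead of 3. The block ended the calls of Icosl and Cd3e (adjusted p = 0.109 and 0.133), among others, and added Irf1 (0.0105). The 4 Cd74 ratios kept their direction in all settings run. Depth limits Itgax, Flt3 and Ciita, which had 3 to 21 counts per library.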
